A study of Mus musculus with 53 samples.

Results

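The 10 genes described here encode the parts of the major histocompatibility complex (MHC) class I antigen presentation machinery: the heavy chains H2-K1 and H2-D1, the light chain B2M, the peptide transporter subunits TAP1 and TAP2, the loading protein TAPBP, the immunoproteasome subunits PSMB8, PSMB9 and PSMB10, and the transcriptional regulator NLRC5. They were taken by gene symbol, and the rule that picks them uses no measured value, although the set was proposed with earlier results of these data known. All 10 were present among the 24360, 20185 and 19176 symbols of the 3 expression tables of the study. All 10 also passed the filter on low values in each table.

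MHC class I molecules carry peptides from inside the cell to its surface, where CD8+ T cells read them. Proteasomes cut proteins into peptides, the TAP1 and TAP2 heterodimer moves the peptides into the endoplasmic reticulum, TAPBP (tapasin) bridges the transporter and the empty class I molecule, and the loaded heavy chain leaves with B2M (beta-2-microglobulin). Interferon gamma from T cells and natural killer cells is known to raise the transcription of this set, in part through IRF1 and NLRC5, and to replace the constitutive catalytic subunits of the proteasome with PSMB8, PSMB9 and PSMB10. Tumours with low levels of these genes can be poorly seen by CD8+ T cells.

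The data were RNA-seq profiles of 53 tumours grown from TA3 Hauschka cells, a murine mammary tumour line. The line was used as cells with a doubled genome (WGD+, for whole-genome doubling) and as cells without (WGD-), and was placed with Matrigel in an inguinal mammary fat pad of female mice aged 6 weeks. In the first table, 24 tumours came from A/J mice or from NOD.Cg-Prkdcscid Il2rgtm1Wjl mice that carry the transgene Tg(CMV-IL3,CSF2,KITLG)1Eav (strain suffix MloySzJ; titled NSG), each bearing WGD- or WGD+ cells and treated with vehicle or with YM-155 (known as an inhibitor of survivin), and collected at day 14. In the second, 17 tumours came from A/J mice bearing either form and given an isotype control antibody, an antibody to PD-L1 or an antibody to CD8. These 17 were also collected at day 14. In the third, 12 tumours from A/J mice bearing either form were collected at day 8 or day 14. Each of the 18 groups held 3 libraries, except WGD- tumours under anti-CD8, which held 2. The immunodeficient host carries the scid mutation of Prkdc and an Il2rg null allele, lacks mature T, B and natural killer cells, and expresses human IL3, CSF2 and KITLG from the CMV promoter; it still has macrophages. Every tumour derived from the same parental cell line. The labels do not state whether the libraries of a group are from different animals, and each library is called a tumour here. The p-values thus reflect the spread between libraries alone, which may be technical.

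On the mouse genome (mm10, positions from the GENCODE M21 annotation), 7 of the 10 genes lie on chromosome 17, where the mouse MHC is. TAPBP spans chr17:33915899-33929292 on the plus strand and H2-K1 spans chr17:33996017-34000347 on the minus strand. PSMB9 (chr17:34181987-34187764, minus strand), TAP1 (chr17:34187553-34197225, plus), PSMB8 (chr17:34197721-34201454, plus) and TAP2 (chr17:34203527-34216321, plus) follow each other, and the ends of PSMB9 and TAP1 overlap. H2-D1 spans chr17:35262730-35267499 on the plus strand. B2M (chr2:122147686-122153083, plus), NLRC5 (chr8:94434356-94527272, plus) and PSMB10 (chr8:105935735-105938444, minus) lie outside the complex.

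The promoter windows are shown because the 10 genes moved together in these tumours and interferon-responsive genes often carry short binding motifs upstream. RefSeq windows of 250 bases before to 50 bases after the start site (build GRCm38.p6) were found for 8 of the 10 genes. NLRC5 and TAP2 are named only. The windows run 5′ to 3′ on the strand of the gene, in lower case, with the matches to 2 of the motifs searched in capitals: the core of an interferon-stimulated response element, AANNGAAA (TTTCNNTT on the other strand), and a STAT site, TTCNNNGAA, which reads the same on both strands. A longer form of the first motif, GAAANNGAA, was searched first, and the shorter form was chosen after the longer was seen to be found in B2M among the members. In B2M the longer match overlaps the shorter, and the capitals cover both.

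B2M, chr2:122147437-122147736, plus strand: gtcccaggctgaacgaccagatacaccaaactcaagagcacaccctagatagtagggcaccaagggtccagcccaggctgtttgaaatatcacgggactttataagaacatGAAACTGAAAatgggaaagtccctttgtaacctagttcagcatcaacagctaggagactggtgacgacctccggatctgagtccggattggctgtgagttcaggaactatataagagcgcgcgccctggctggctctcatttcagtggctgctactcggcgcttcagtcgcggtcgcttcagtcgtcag
H2-K1, chr17:34000298-34000597, minus strand: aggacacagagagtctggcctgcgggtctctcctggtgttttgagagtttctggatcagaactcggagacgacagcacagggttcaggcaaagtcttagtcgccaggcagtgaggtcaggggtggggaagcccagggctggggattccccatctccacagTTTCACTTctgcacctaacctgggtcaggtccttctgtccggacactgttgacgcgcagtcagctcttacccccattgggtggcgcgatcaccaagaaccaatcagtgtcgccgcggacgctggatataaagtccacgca
H2-D1, chr17:35262844-35263143, plus strand: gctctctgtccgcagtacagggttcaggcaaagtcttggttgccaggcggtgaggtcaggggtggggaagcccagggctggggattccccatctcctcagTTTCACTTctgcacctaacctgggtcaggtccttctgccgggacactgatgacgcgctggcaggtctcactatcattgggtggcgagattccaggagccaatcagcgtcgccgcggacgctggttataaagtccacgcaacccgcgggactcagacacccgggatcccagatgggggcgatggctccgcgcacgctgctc
PSMB8, chr17:34197945-34198244, plus strand: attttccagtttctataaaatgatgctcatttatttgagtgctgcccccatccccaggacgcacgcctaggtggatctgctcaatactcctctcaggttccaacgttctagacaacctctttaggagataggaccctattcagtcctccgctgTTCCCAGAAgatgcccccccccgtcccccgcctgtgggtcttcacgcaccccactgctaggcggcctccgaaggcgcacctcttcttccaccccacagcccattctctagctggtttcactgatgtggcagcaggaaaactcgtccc
TAP1, chr17:34187306-34187605, plus strand: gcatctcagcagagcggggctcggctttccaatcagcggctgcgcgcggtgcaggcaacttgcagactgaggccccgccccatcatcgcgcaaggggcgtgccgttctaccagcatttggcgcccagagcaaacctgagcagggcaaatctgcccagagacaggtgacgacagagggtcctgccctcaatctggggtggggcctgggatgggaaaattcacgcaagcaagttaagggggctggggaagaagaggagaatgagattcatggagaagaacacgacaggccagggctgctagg

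The core matched in 3 of the 8 members with a window, the light chain B2M and both heavy chains, H2-K1 and H2-D1. Of 32851 promoter windows, 23.9% hold such a match. The longer form matched in B2M, against 8.56% of all windows. The STAT motif matched in PSMB8, against 8.30% of all windows. The windows of TAP1 and PSMB9 share 275 bases (chr17:34187306-34187580), since the start sites of these genes lie 226 bases apart on opposite strands, so 1 stretch of sequence precedes a transporter subunit and an immunoproteasome subunit. The CCAAT box (CCAAT, or ATTGG on the other strand) was also searched and is not in capitals. It matched in 6 of the 8 members with a window, against 37.4% of all windows. The TAP1 and PSMB9 matches are the same bases of the shared stretch, and those of H2-K1 and H2-D1 lie in similar sequence. The 6 are therefore not independent. The TAP1 window has no capitals, as neither of the capitalised motifs matched there. H2-K1 and H2-D1 share a run of up to 47 bases, which does not hold the core match. Their core matches lie in another stretch of identical bases in both windows, so these matches are not independent. These matches describe letters and not binding.

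Depth per library was read from the smallest step between values and amounted to 3.23 to 7.75 M assigned reads (YM-155 table), 9.57 to 15.5 M (antibody table) and 5.25 to 12.2 M (time course). Titles and the genotype field disagree for 12 libraries of the YM-155 table, where the field gives WGD- for every vehicle library and WGD+ for every YM-155 library; the titles were used here, and the directions between forms and between treatments in that table rest on them. Vehicle-treated A/J WGD- replicates 1 and 2, WGD- day 8 replicate 1 and WGD+ day 8 replicate 3 correlate less well with all other libraries of their table, and the counts of called members that rest on them are given with and without them; values of other genes are given with them. Summed markers of epithelial tumour cells were between 693 and 3053 CPM (counts per 1 M reads) in all 18 groups, and none of the 5 markers was at 0 in every library of a group. Levels below are on the deposited log2(CPM + 1) scale and differences are differences of such values, which understates changes of genes with few reads. In whole tumours, fewer cells of a type and less RNA per cell cannot be told apart. The heavy-chain genes have near-identical relatives, and the reference strain, C57BL/6, carries another H2 haplotype than A/J or NOD-derived mice, so their read counts are uncertain; how far this moves them was not tested. The counting strand is not given, so reads in the overlap of PSMB9 and TAP1 may have been assigned to either.

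Levels between genes were compared as CPM per kilobase of annotated exon, with all annotated exons of a gene pooled. The order between genes therefore depends on this length. In vehicle-treated A/J WGD- tumours the order was B2M (mean 2373), H2-K1 (1035), H2-D1 (241), TAPBP (162), PSMB8 (124), PSMB10 (120), TAP2 (108), PSMB9 (88.1), TAP1 (79.4) and NLRC5 (6.92). B2M, with values from 1899 to 2708, and H2-K1, with values from 595 to 1261, stood apart from each other and from the rest, and neighbours from PSMB8 to TAP1 overlapped. In vehicle-treated NSG WGD- tumours B2M (229) and H2-K1 (55.7) again led, followed by TAPBP (23.2), PSMB10 (17.5), H2-D1 (13.9), TAP2 (10.7), PSMB8 (7.53), TAP1 (4.34), PSMB9 (2.30) and NLRC5 (0.132). The lowest of the 10 in both hosts was thus the regulator.

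Within groups, the 10 genes spread widely between libraries in the A/J host. In A/J tumours of the YM-155 table the median within-group SD of the members was 0.994, against 0.258 for all tested genes, and in NSG tumours it was 0.235 against 0.180. In the antibody table the medians were 0.594 and 0.211, and in the time course 0.695 and 0.261.

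**Figure D1:**
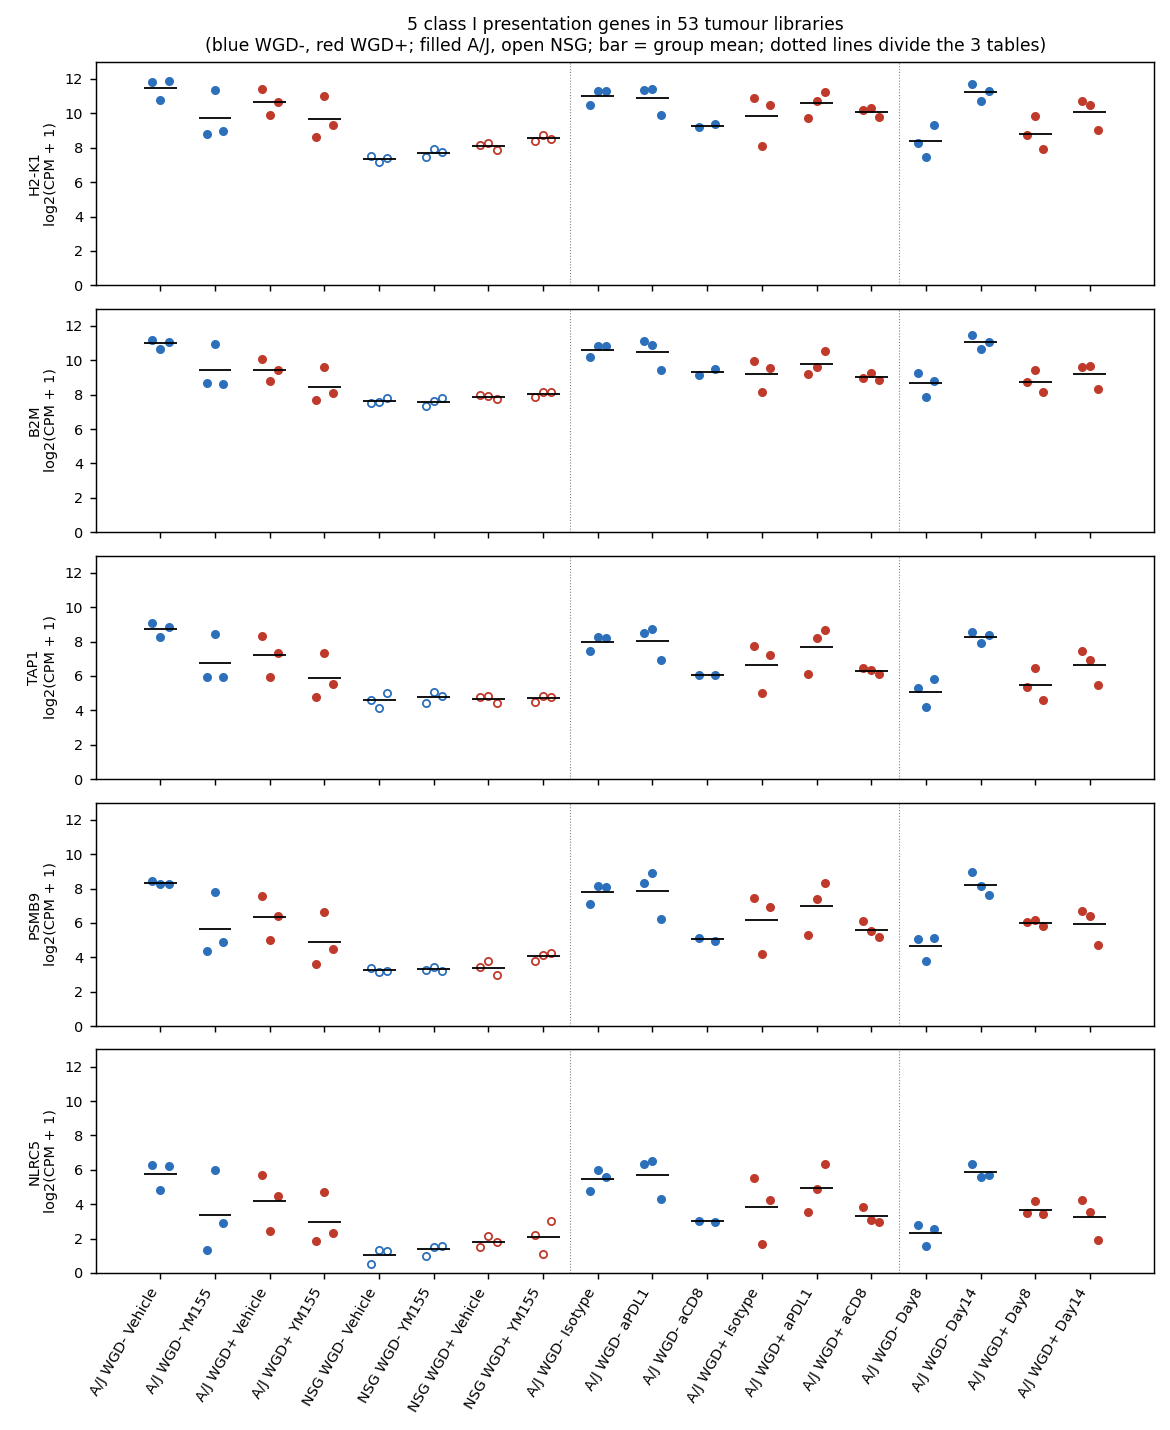
Levels of H2-K1, B2M, TAP1, PSMB9 and NLRC5 (log2(CPM + 1), vertical axis) by group, with 1 point per library, a bar at the group mean, blue for WGD-, red for WGD+, filled for A/J and open for NSG hosts; dotted lines divide the 3 tables. The NSG libraries of PSMB9 sit between 2.95 and 4.24, close together, and the A/J WGD- YM-155 libraries spread from 4.34 to 7.80.

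The host comparison asks how these genes differ between tumours in A/J and NSG mice. The hosts differ in strain background and in the transgene as well as in immune competence, so these cannot be told apart here. In WGD- tumours given vehicle, all 10 genes had higher levels in the A/J host (limma with Benjamini-Hochberg adjustment, as throughout), where 16.2% of 13826 tested genes were called higher. The median difference of the 10 was 4.01, against −0.03 over all genes. The 10 remained called without each of the 6 libraries in turn. Without the 2 libraries that stand apart the count was also 10, but that fit has 1 A/J library, which is assumed to vary like the other groups.

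H2-K1, the more abundant of the heavy chains, was at 11.84, 10.77 and 11.86 in A/J WGD- vehicle tumours and at 7.51, 7.15 and 7.41 in the NSG counterparts. The groups were far apart, with a difference of 4.13 (SE 0.59, adjusted p = 0.000176). B2M, the light chain that every class I heavy chain needs, was at 11.19, 10.67 and 11.08 against 7.51, 7.59 and 7.78, a difference of 3.35 (SE 0.50, adjusted p = 0.000226). H2-D1 differed by 4.03 (SE 0.58, adjusted p = 0.00019), again with no overlap. For the transporter, TAP1 was at 9.07, 8.26 and 8.85 in A/J and at 4.60, 4.12 and 5.02 in NSG tumours, and differed by 4.14 (SE 0.65, adjusted p = 0.000313). TAP2 differed by 3.16 (SE 0.55, adjusted p = 0.000551), and TAPBP, which tethers the transporter to the class I molecule, by 2.62 (SE 0.52, adjusted p = 0.00134), the smallest of the 10. Each of these genes was higher in all 3 A/J libraries than in any NSG library of the comparison.

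PSMB9, the immunoproteasome counterpart of PSMB6, was at 8.44, 8.28 and 8.28 in A/J WGD- vehicle tumours and at 3.36, 3.16 and 3.17 in NSG. Its difference, 5.10 (SE 0.76, adjusted p = 0.000226), was the largest of the 10 and corresponds to 34.4-fold. PSMB8, the counterpart of PSMB5, differed by 3.99 (SE 0.62, adjusted p = 0.000291). PSMB10, the counterpart of PSMB7, differed by 2.74 (SE 0.50, adjusted p = 0.00077). NLRC5, a transactivator of class I genes, was at 6.28, 4.84 and 6.19 in A/J tumours and at 0.53, 1.31 and 1.28 in NSG tumours, where 3, 11 and 10 reads lie behind it. Its difference was 4.73 (SE 0.96, adjusted p = 0.00157), and over all 12 NSG libraries it had 3 to 52 reads.

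The constitutive catalytic subunits differed far less than their interferon-inducible counterparts. PSMB5, PSMB6 and PSMB7 were at 55.5, 155 and 107 CPM per kilobase in A/J WGD- vehicle tumours and at 38.1, 117 and 89.4 in NSG. PSMB8, PSMB9 and PSMB10 were at 124, 88.1 and 120 in the same A/J tumours and at 7.53, 2.30 and 17.5 in NSG. Of the 3 constitutive subunits, PSMB5 (0.54) and PSMB6 (0.39) were called higher in A/J. In mean CPM per kilobase the inducible subunits were thus below their counterparts in NSG tumours. In A/J WGD- vehicle tumours PSMB8 and PSMB10 were above PSMB5 and PSMB7, and PSMB9 was below PSMB6. These A/J orders depend on the pooled exon lengths (PSMB8 3381 bases, PSMB5 899, PSMB9 3660, PSMB6 1872, PSMB10 1705, PSMB7 3421). In CPM without division by length, PSMB10 (180 to 239) was below PSMB7 (359 to 375) in these tumours. PSMB9 (310 to 346 CPM) overlapped PSMB6 (260 to 326 CPM). Per kilobase, PSMB10 (66.0) was below PSMB7 (82.6) in A/J WGD+ vehicle tumours. In A/J WGD- YM-155 tumours mean PSMB8 (49.4, libraries 16.7 to 112.5) and PSMB10 (53.4) were below PSMB5 (51.5) and PSMB7 (121). Without division by length, PSMB8 in the latter tumours (56.3 to 380 CPM) was above PSMB5 (40.4 to 49.5 CPM).

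**Figure D2:**
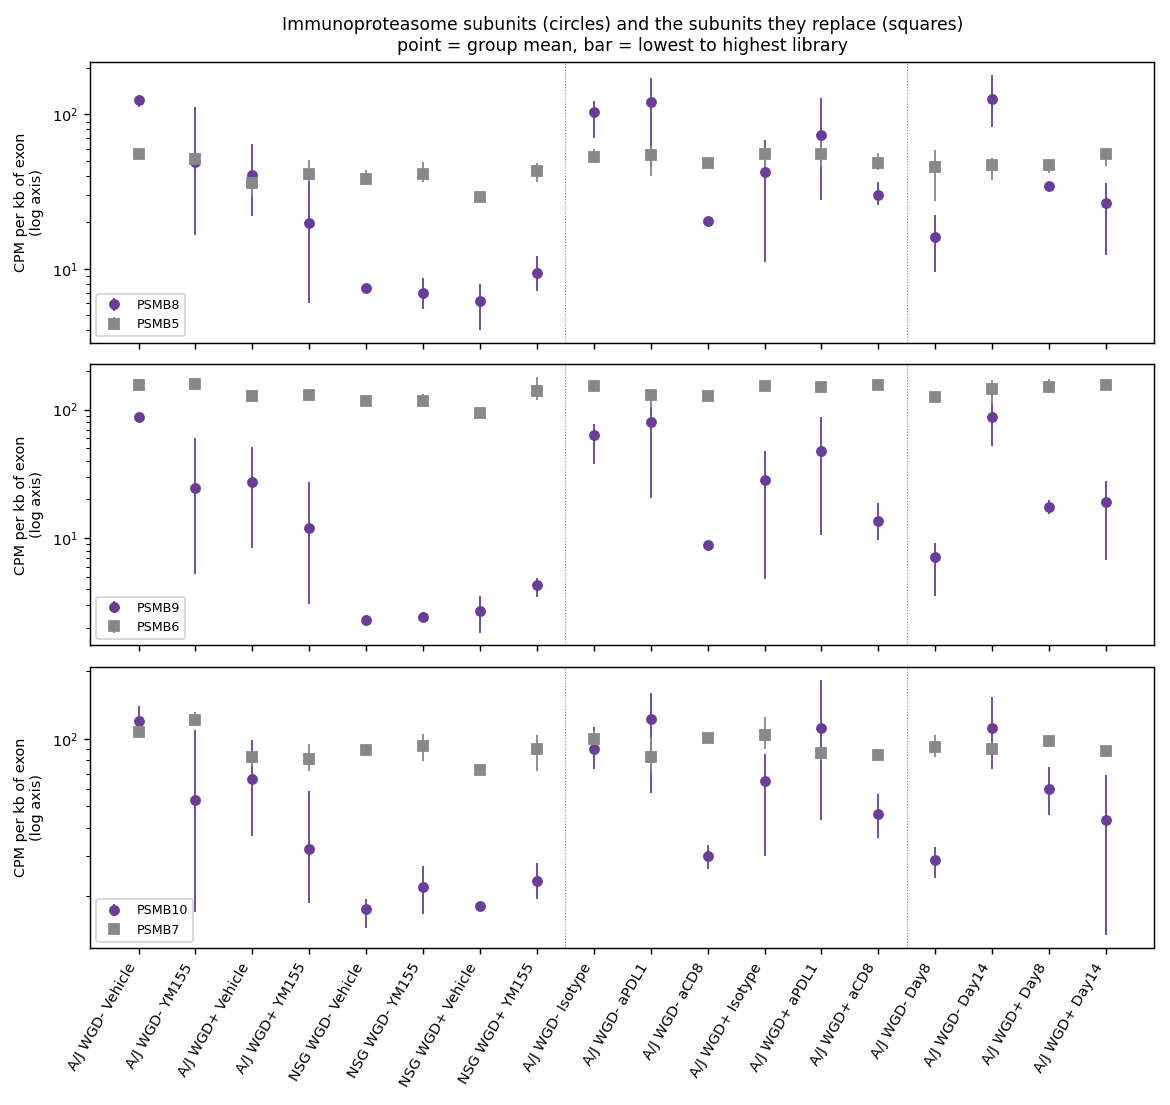
CPM per kilobase of exon (vertical log axis) by group for the immunoproteasome subunits PSMB8, PSMB9 and PSMB10 (circles) and their constitutive counterparts PSMB5, PSMB6 and PSMB7 (squares), with points at group means and bars from the lowest to the highest library. Group means of PSMB6 lie between 94.9 and 160 in all 18 groups, whereas PSMB9 goes from 88.1 in A/J WGD- vehicle tumours to 2.30 in their NSG counterparts.

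Other genes of the pathway were also higher in A/J WGD- vehicle tumours. Of 11 other class I heavy chains 8 were tested and 7 were called higher, with a median difference of 2.57, among them H2-Q4 (3.29), H2-Q10 (3.12) and H2-T10 (2.81). The proteasome activator subunits PSME2 (2.66) and PSME1 (2.13) and the assembly factor POMP (1.09) were 3 called of 4, and the loading partners TAPBPL (2.22) and ERAP1 (1.50) were 2 of 6. Of 9 interferon gamma signalling genes, 5 were called higher and 1 lower, including the transcription factor IRF1 (2.98) and the feedback inhibitor SOCS1 (2.28). All 9 interferon gamma targets on a separate list were called higher, with GBP4 (6.47), IIGP1 (5.99) and CXCL9 (5.85) the largest. Of 10 type I interferon pathway genes 8 were called higher and 1 lower, with IFIT1 (3.13), IRF7 (2.76) and ISG15 (2.49) the largest. Class II genes gave 5 of 6 called higher, with CD74, the invariant chain, at 3.64, H2-AA at 3.54 and H2-DMB1 at 3.52. IFNG itself was at 1.82, 1.95 and 1.49 in A/J WGD- vehicle tumours, while 11 of 12 NSG libraries had no IFNG read and the other had 1; a count of 0 allows up to 0.401 to 0.502 CPM there. Its difference was 1.69 (SE 0.35, adjusted p = 0.0013). IFNG passed the filter on low values through A/J libraries alone, so this call could go only 1 way.

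Several cell type markers moved with the host. Summed T and cytotoxic lymphocyte markers (9 genes) were at 15.8 to 23.3 CPM in A/J WGD- vehicle and at 0.299 to 1.21 CPM in NSG WGD- vehicle tumours. Of these markers 4 of 5 tested were called higher in A/J, and CD3D, CD3E, CD3G, CD8B1, NKG7, GZMB and PRF1 were at 0 in each NSG WGD- vehicle library. In no NSG library did the 9 markers sum to over 1.34 CPM, so they passed the filter on low values mainly through A/J libraries. A marker at 0 in the NSG libraries, of any cell type, could only be called higher in A/J. Summed macrophage markers were at 212 to 295 CPM and 173 to 264 CPM, and 0 were called. All 3 liver markers were called higher in A/J, at 13.4 to 1330 CPM summed against 0 CPM. Fibroblast markers summed to 76.5 to 1430 CPM against 802 to 1515 CPM (2 of 5 called lower) and endothelial markers to 32.7 to 40.8 CPM against 63.3 to 82.2 CPM (3 of 3 called lower). Natural killer cell markers (4 genes) summed to 30.5 to 34.0 CPM in A/J WGD- vehicle and to 21.4 to 24.8 CPM in NSG WGD- vehicle tumours. Of these markers NCR1 and KLRE1 were at 0 in the NSG libraries, and 1 of 2 tested was called higher in A/J. Of 5 epithelial markers 2 were called higher, of 4 neutrophil markers 1 lower and of 4 skeletal muscle markers 1 lower. The part of these cells in the class I difference was not tested.

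In WGD+ tumours given vehicle, 9 of the 10 genes were called higher in A/J than in NSG, where 7.2% of all genes were called higher. All 10 differences were positive, with a median of 2.38. PSMB9 was at 7.55, 4.99 and 6.42 in A/J WGD+ vehicle tumours and at 3.44, 3.80 and 2.95 in NSG (2.92, adjusted p = 0.02). The A/J libraries spread widely yet all lay above the NSG libraries. H2-K1 differed by 2.56 (adjusted p = 0.0121), TAP1 by 2.53 (adjusted p = 0.0196) and B2M by 1.54 (adjusted p = 0.0492). NLRC5, at 5.71, 2.44 and 4.47 against 1.51, 2.17 and 1.77, differed by 2.38 and was not called (adjusted p = 0.106). The count fell to 1 without NSG WGD+ vehicle replicate 3, to 3 without A/J WGD+ vehicle replicate 1, to 4 without A/J WGD+ vehicle replicate 3 and to 5 without NSG WGD+ vehicle replicate 2. Of the other lists, 4 of 8 heavy chains (H2-Q4 at 2.02, H2-T23 at 1.72 and H2-Q1 at 1.34), 3 of 4 activator and assembly genes (PSME2 at 1.75, PSME1 at 1.56 and POMP at 0.60) and 2 of 9 signalling genes (IRF1 at 1.87 and SOCS1 at 1.34) were called higher. So were 3 of 10 type I interferon pathway genes (ISG15 at 1.65, OAS1A at 1.30 and IFNAR2 at 0.50), the loading partner TAPBPL (1.72, 1 of 6), the class II gene H2-DMB1 (1.91, 1 of 6) and PSMB6 (0.43, 1 of 3), while 0 of 9 interferon gamma targets were called. T and cytotoxic lymphocyte markers summed to 2.93 to 7.74 CPM in A/J against 0.942 to 1.22 CPM in NSG, and 0 of 5 were called; their part in the result was not tested.

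Under YM-155 fewer members passed the test between hosts. In WGD- tumours H2-K1 (1.99, adjusted p = 0.0463), H2-D1 (2.19, adjusted p = 0.0317), B2M (1.82, adjusted p = 0.0341) and PSMB8 (2.22, adjusted p = 0.0369) were called higher in A/J, 4 of 10 where 4.77% of all genes were, and the median of the 10 was 1.99. The A/J WGD- YM-155 libraries were uneven, with PSMB8 at 5.84, 8.58 and 6.02, against 4.29, 4.94 and 4.54 in NSG. In 5 of the 6 fits that leave out a library the count was 0, and it was 6 without A/J WGD- YM-155 replicate 3. Of the other lists in WGD- YM-155 tumours, PSME2 (1.54), PSME1 (1.11) and POMP (0.65) were 3 of 4 called higher, H2-Q1 (1.50) and H2-T10 (1.17) 2 of 8, OAS1A (1.09) 1 of 10 and H2-DMB1 (1.90) 1 of 6. In WGD+ tumours under YM-155, 0 of the 10 were called where 0.0362% of genes were; all 10 differences were positive with a median of 0.86, and by unadjusted p under 0.05 there were 0 members and 1754 genes. The 4 host comparisons use different libraries. Whether the host difference changed with the form was tested directly, and 0 of 10 members and 0% of genes were called under vehicle (median of the members −1.60, 2 members and 1787 genes at unadjusted p under 0.05) or under YM-155 (median −1.03, 0 members and 1058 genes). The vehicle term also gave 0 without the libraries that stand apart (median −1.82, with 1 A/J WGD- library).

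**Figure D3:**
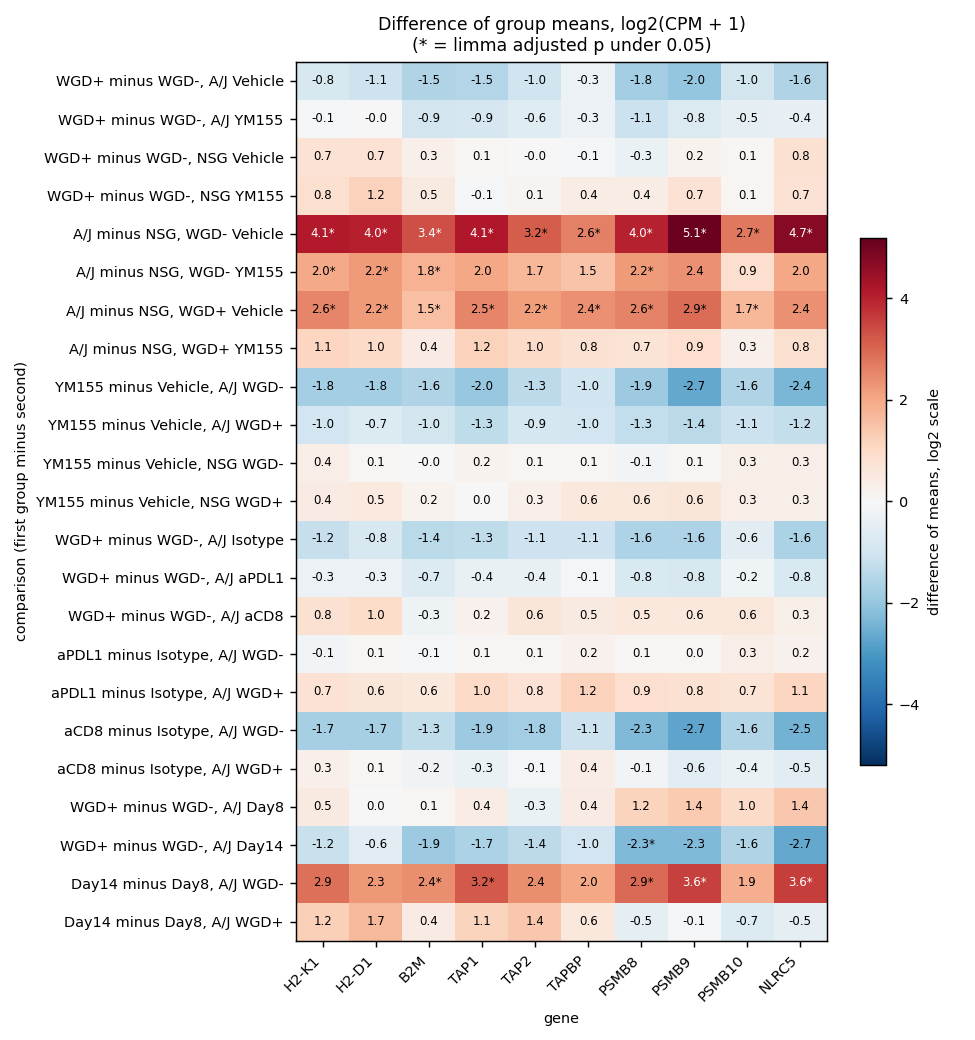
Heat map of the difference of group means (log2(CPM + 1), colour and printed value) for the 10 genes (horizontal axis) in the 23 comparisons of a pair of groups (vertical axis), where a star marks an adjusted p under 0.05. A/J minus NSG in WGD- vehicle tumours has 10 stars, and most of the other comparisons have none.

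The comparison of forms asks whether whole-genome doubling goes with other levels of these genes. In A/J vehicle tumours all 10 differences (WGD+ minus WGD-) were negative, with a median of −1.29 against 0.03 over all genes, but 0 of 10 were called where 11.1% of genes were. PSMB9 (−2.02, SE 0.76, adjusted p = 0.0888), PSMB8 (−1.75, adjusted p = 0.0725) and B2M (−1.55, adjusted p = 0.0523) had the lowest adjusted p or the largest differences, and 4 members and 3967 genes were under an unadjusted p of 0.05. B2M was at 10.10, 8.78 and 9.42 in A/J WGD+ vehicle tumours and at 11.19, 10.67 and 11.08 in A/J WGD- vehicle, which do not overlap. The activator subunits PSME2 (−1.30) and PSME1 (−1.04) and POMP (−0.79) fell in the same comparison, 3 of 4 on their list, and H2-Q10 (−2.05) and H2-T10 (−1.16) fell, 2 of 8 other heavy chains. The constitutive subunit PSMB5 (−0.63, 1 of 3), the interferon gamma target IDO1 (−1.60, 1 of 9) and SOCS1 (−1.32) also fell, whereas the receptor subunit IFNGR1 (0.84) and the chaperone CANX (0.45, 1 of 6) rose, so that the 9 signalling genes had 1 called each way. Also called lower in WGD+ were 2 of 5 T and cytotoxic lymphocyte markers, whose sum was 2.93 to 7.74 CPM in A/J WGD+ vehicle against 15.8 to 23.3 CPM in A/J WGD- vehicle. Some other marker sums did not overlap either. Epithelial (1493 to 1841 against 2307 to 3053 CPM) and liver markers (0 to 4.26 against 13.4 to 1330 CPM) were lower in WGD+. Endothelial (45.6 to 64.3 against 32.7 to 40.8 CPM) and skeletal muscle markers (505 to 544 against 206 to 459 CPM) were higher. Macrophage markers overlapped. The part of these cells in the class I differences was not tested. In YM-155-treated A/J tumours PSMB7 was called lower (−0.59, 1 of 3), and 0 of 10 members were called where 1.69% of genes were (median −0.56; 0 members and 2031 genes at unadjusted p under 0.05). Without the libraries that stand apart the vehicle comparison gave 0 of 10, with a median of −1.62; its WGD- arm then held 1 library, assumed to vary like the other groups. The A/J WGD- vehicle libraries enter the host, form and YM-155 comparisons alike, so those results share them.

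In NSG hosts no member was called between the forms when all groups of the table shared 1 estimate of the spread. Under vehicle 0 of 10 were called where 2.85% of genes were, with a median difference of 0.13, and under YM-155 0 of 10 where 1.58% were, with a median of 0.44. Unadjusted p-values under 0.05 were found for 0 members in each, and for 2303 and 2161 genes. H2-D1 had the largest of these, 1.20 under YM-155 (adjusted p = 0.328), at 6.20, 6.76 and 6.40 in WGD+ against 4.84, 5.33 and 5.59 in WGD-. When the fit held the 2 groups alone, both heavy chains were called higher in WGD+: under vehicle H2-K1 (0.75) and H2-D1 (0.74) with 17.8% of genes called, and under YM-155 H2-K1 (0.83) and H2-D1 (1.20) with 2.14% called. That is 2 of 10 in each.

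Isotype-treated A/J tumours repeat the comparison of forms in the antibody table, where 0 of 10 were called against 1.1% of genes and the median difference was −1.25 (2 members and 2621 genes at unadjusted p under 0.05). H2-K1 was at 10.90, 8.12 and 10.49 in isotype WGD+ tumours and at 10.51, 11.27 and 11.29 in isotype WGD- tumours. WGD+ replicate 2 was the lowest of these, and its NLRC5 level was 1.70 (21 reads) beside 5.51 and 4.27 in the other two. Under anti-PD-L1 the forms gave 0 of 10 against 0.701% (median −0.39, 0 members and 3067 genes unadjusted), and under anti-CD8 0 of 10 against 1.57% (median 0.55, 0 members and 2940 genes unadjusted). With the 2 anti-CD8 groups alone in the fit, H2-K1 (0.81), H2-D1 (0.96) and TAP2 (0.61) were called higher in WGD+, 3 of 10 where 5.78% of genes were called.

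For YM-155 the comparison with vehicle was made separately by host and form. In A/J WGD- tumours all 10 differences were negative, with a median of −1.78 against 0.04 over all genes, and 0 of 10 were called where 4.19% of genes were, although 9 members and 3484 genes were under an unadjusted p of 0.05. PSMB9 was at 4.34, 7.80 and 4.88 after YM-155 and at 8.44, 8.28 and 8.28 after vehicle, a difference of −2.66 (adjusted p = 0.0526). Replicate 2 of the YM-155 group was close to the vehicle libraries, as it was for B2M (10.94 beside 8.67 and 8.62) and NLRC5 (5.97 beside 1.31 and 2.92; 392 reads beside 9 and 49). Without that library 9 of the 10, all but TAPBP, were called lower, with adjusted p over the 10 from 0.00385 to 0.0536 and a median of −2.51, where 3.38% of genes were called lower. This dependence on 1 library was seen in the data. Without the 2 vehicle libraries that stand apart the count was 0, with a median of −2.01, from 1 vehicle library assumed to vary like the other groups.

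A/J WGD- YM-155 replicate 2 also had the highest IFNG, IRF1 and CD8A levels of its group. IFNG was at 0.00, 1.53 and 0.18 in A/J WGD- YM-155 tumours, IRF1 at 5.01, 7.75 and 5.61 and CD8A at 0.86, 1.75 and 0.18. Summed T and cytotoxic lymphocyte markers ranged from 1.61 to 18.8 CPM in that group. The part of these genes and cells in the class I levels of that library was not tested. Of related genes, H2-Q10 (−2.28) and H2-T10 (−1.53), 2 of 8 other heavy chains, and PSME2 (−1.18) and PSME1 (−1.06), 2 of 4, fell with YM-155 in A/J WGD- tumours, as did SOCS1 (−1.86) and IDO1 (−1.51), each 1 of 9 on its list. IRF1 differed by −1.75 (adjusted p = 0.064) and IFNG by −1.19 (adjusted p = 0.0555), neither called. Macrophage markers summed to 70.9 to 198 CPM after YM-155 and to 212 to 295 CPM after vehicle in A/J WGD- tumours, and their part was not tested.

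In the other 3 settings no member was called after YM-155. In A/J WGD+ tumours the median was −1.06, with 0% of genes called and 1 member and 445 genes under an unadjusted p of 0.05. Here too the YM-155 libraries were uneven. The mean of the 10 members was 7.89 in replicate 2, beside 5.48 and 6.09, and 6.70 to 8.44 after vehicle. That replicate had 1 IFNG read. Without each of the 6 libraries in turn the count was still 0. In NSG WGD- tumours the median was 0.10, with 0% called and 0 members and 697 genes unadjusted. In NSG WGD+ tumours it was 0.39, with 0.00723% called and 0 members and 1805 genes unadjusted. The form by YM-155 term in A/J mice gave 0 of 10 and 0% of genes (median 0.63, 0 members and 1650 genes unadjusted), and 0 of 10 without the libraries that stand apart (median 0.79, with 1 A/J WGD- vehicle library).

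The antibody comparisons ask whether an antibody to PD-L1 or to CD8 goes with other levels of class I genes. CD8A, whose protein the anti-CD8 antibody binds, was at 0.67 and 0.38 in anti-CD8 WGD- tumours and at 1.53, 3.21 and 3.10 in isotype WGD- tumours (difference −2.09, adjusted p = 0.389). In WGD+ tumours CD8A was at 0.61, 0.42 and 0.19 after anti-CD8 and at 1.10, 0.51 and 0.38 after isotype, which overlap (difference −0.26, adjusted p = 0.949). Anti-PD-L1 minus isotype gave 0 of 10 in WGD- tumours, where 0.00723% of genes were called, with a median of 0.07 (0 members and 521 genes unadjusted). In WGD+ tumours it gave 0 of 10 where 0% were called, with a median of 0.78, TAPBP at 1.19 and 1 member and 504 genes unadjusted. These differences did not exceed the spread between libraries; PSMB9 in anti-PD-L1 WGD+ tumours ran from 5.30 to 8.33.

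Anti-CD8 minus isotype in WGD- tumours gave negative differences in all 10 genes, with a median of −1.76 against 0.01 over all genes. PSMB9 was at 5.13 and 4.96 in the 2 anti-CD8 libraries and at 7.13, 8.16 and 8.07 in the isotype libraries, a difference of −2.74. NLRC5 differed by −2.47, at 3.04 and 2.95 against 4.80, 6.02 and 5.59, and PSMB8 by −2.28, at 6.08 and 6.19 against 7.91, 8.65 and 8.69. The groups do not overlap for these 3 genes, yet 0 of 10 were called where 0.00723% of genes were (adjusted p 0.368 to 0.425; 9 members and 1671 genes at unadjusted p under 0.05). When the fit held these 2 groups alone, 10 of 10 were called lower (adjusted p 0.0201 to 0.0423) where 0.874% of genes were. T and cytotoxic lymphocyte markers summed to 2.76 to 7.25 CPM under anti-CD8 against 29.6 to 85.8 CPM under isotype, with 0 of 9 called, and CD8B1 was at 0 in both anti-CD8 libraries. Dendritic cell markers summed to 6.56 to 6.57 CPM against 13.7 to 34.2 CPM, and macrophage markers overlapped (208 to 492 against 472 to 873 CPM). The part of these cells was not tested. IRF1 differed by −2.16 (adjusted p = 0.368).

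In WGD+ tumours anti-CD8 minus isotype had a median of −0.16, with 0 of 10 members and 0% of genes called (0 members and 1041 genes unadjusted). H2-K1 was at 10.21, 10.30 and 9.78 after anti-CD8 and at 10.90, 8.12 and 10.49 after isotype, which overlap. Both antibodies were compared with the same isotype libraries, so their results are not independent. The form by anti-PD-L1 term gave 0 of 10 and 0% of genes (median 0.79, 0 members and 232 genes unadjusted), and the form by anti-CD8 term gave 0 of 10 and 0% (median 1.75, 1 member and 2304 genes unadjusted).

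In the time course, 5 of the 10 genes were called higher at day 14 than at day 8 in WGD- tumours, where 0.824% of genes were called higher. The median of the 10 was 2.65 against −0.01 over all genes. NLRC5 was at 6.36, 5.60 and 5.68 at day 14 and at 2.76, 1.57 and 2.57 at day 8, a difference of 3.58 (SE 0.52, adjusted p = 0.0106). PSMB9 was at 8.94, 8.13 and 7.60 against 5.04, 3.79 and 5.11, a difference of 3.57 (SE 0.52, adjusted p = 0.0115), and PSMB8 rose by 2.95 (SE 0.42, adjusted p = 0.0106). The day 14 libraries of these subunits and of the regulator were all above the day 8 libraries. TAP1 rose by 3.19 (adjusted p = 0.0333) and B2M by 2.41 (adjusted p = 0.0365). The other 5 were positive without being called: H2-K1 2.87 (adjusted p = 0.0563), TAP2 2.43 (0.0512), H2-D1 2.26 (0.104), TAPBP 2.01 (0.0903) and PSMB10 1.88 (0.134). The count was 0 without WGD- day 14 replicate 1 or without WGD- day 8 replicate 2, 2 without WGD- day 14 replicate 2, 3 without WGD- day 14 replicate 3, and 4 without the library that stands apart, when TAP1 was lost (adjusted p = 0.0694).

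Per kilobase, PSMB8, PSMB9 and PSMB10 averaged 16.1, 7.15 and 28.9 CPM at day 8 in WGD- tumours and 126, 87.6 and 112 at day 14. Genes of the interferon lists were called over the same interval as well. IRF1 rose by 2.37, among 2 of 9 signalling genes called higher, and 6 of 9 interferon gamma targets were called higher, including CXCL9 (5.01), GBP4 (4.88) and GBP2 (3.61). H2-Q4, with a mean level of 6.25 at day 8 and 8.75 at day 14 (adjusted p = 0.0368), and H2-T10 (difference 1.93) were 2 of 8 other heavy chains called, and PSME2 (1.65) and PSME1 (1.48) 2 of 4 activator and assembly genes. Of the type I interferon pathway genes 2 of 10 were called higher, ISG15 (1.91) among them. IFNG was at 4.29, 2.59 and 1.20 at day 14 and at 0, 0.12 and 0.22 at day 8 (difference 2.58, adjusted p = 0.0605), and T and cytotoxic lymphocyte markers summed to 40.6 to 260 CPM against 1.46 to 6.78 CPM, with 7 of 8 called higher. Dendritic cell markers summed to 10.2 to 43.4 CPM at day 14 and to 6.59 to 7.98 CPM at day 8. Macrophage markers overlapped (102 to 570 against 144 to 977 CPM). The part of IFNG and of these cells in the class I changes was not tested.

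In WGD+ tumours day 14 minus day 8 gave 0 of 10 where 11.2% of all genes were called. H2-D1 (1.67, adjusted p = 0.0722), TAP2 (1.39) and H2-K1 (1.25) had positive differences, and PSMB10 (−0.70), PSMB8 (−0.50), NLRC5 (−0.46) and PSMB9 (−0.10) negative ones. PSMB8 was at 6.95, 6.74 and 5.40 at day 14 and at 6.76, 6.95 and 6.89 at day 8, which overlap. The loading partners PDIA3 (1.14) and CALR (1.01) rose, 2 of 6, and the kinases JAK2 (−1.91) and JAK1 (−0.77) fell, 2 of 9. T and cytotoxic lymphocyte markers summed to 11.3 to 12.6 CPM at day 8 and 1.76 to 13.8 CPM at day 14, with 0 of 8 called. Skeletal muscle markers reached 13430 CPM in a WGD+ day 8 library. By unadjusted p, 2 members and 4087 genes were under 0.05. Without the WGD+ day 8 library that stands apart, 0 of 10 were called and the median went from 0.50 to 0.18; without WGD+ day 8 replicate 2, 1 was called.

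**Figure D4:**
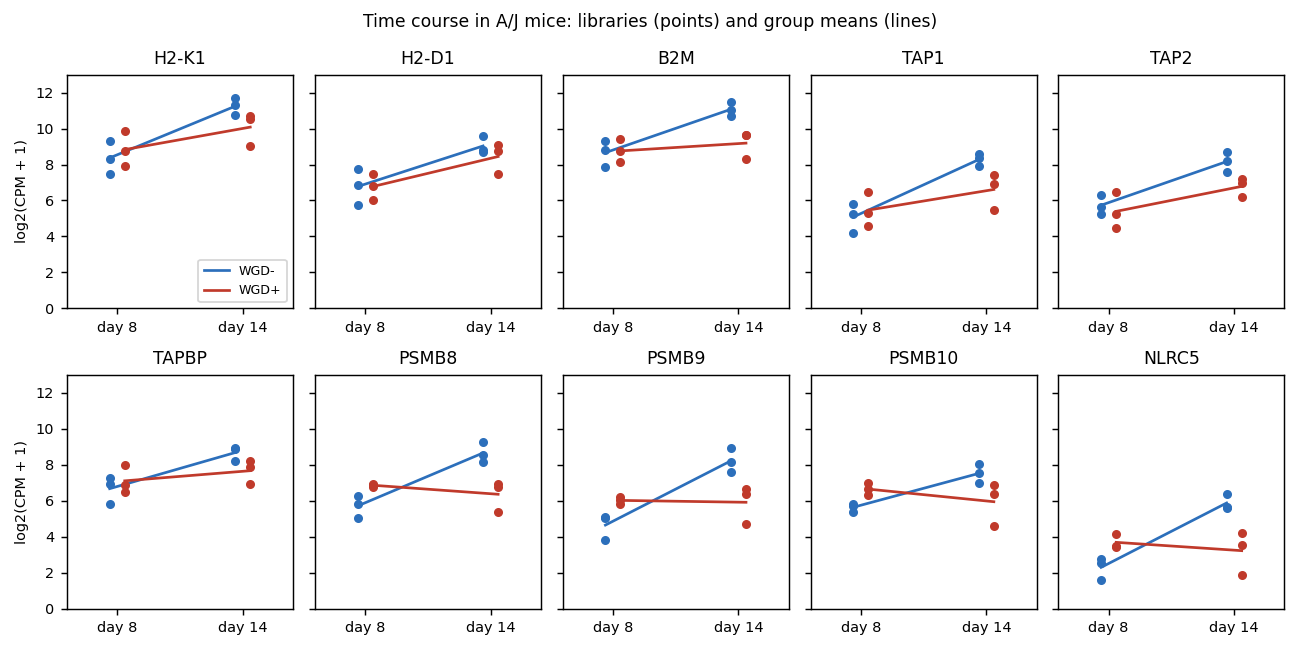
Levels of the 10 genes (log2(CPM + 1)) at day 8 and day 14 in WGD- and WGD+ tumours of A/J mice, blue for WGD- and red for WGD+, with 1 point per library and lines joining group means. The WGD- line of NLRC5 rises by 3.58 and its WGD+ line goes by −0.46.

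The forms were compared at each time. At day 8 the median WGD+ minus WGD- difference was 0.45, and 0 of 10 were called where 3.39% of genes were; NLRC5 (1.39), PSMB9 (1.37) and PSMB8 (1.15) were the largest, and 3 members and 2724 genes were under an unadjusted p of 0.05. On the other lists CALR (−1.22) and PDIA3 (−1.13) were called lower, 2 of 6, IFNAR1 (−0.78) lower, 1 of 10, and IRGM1 (1.54) higher, 1 of 9. Without the 2 day 8 libraries that stand apart it was 0 of 10 as well, with a median of 0.90. At day 14 the median was −1.62 and PSMB8 was called lower (−2.30, SE 0.42, adjusted p = 0.0442), 1 of 10 where 0.401% of genes were. NLRC5 (−2.65, adjusted p = 0.0547), PSMB9 (−2.30, adjusted p = 0.0819) and B2M (−1.88, adjusted p = 0.094) were not called. In the same comparison the interferon gamma targets CXCL9 (−3.93), GBP4 (−3.69) and CIITA (−2.39) were called lower, 3 of 9, as was 1 of 9 signalling genes. T and cytotoxic lymphocyte markers summed to 1.76 to 13.8 CPM in WGD+ and 40.6 to 260 CPM in WGD- tumours at day 14, 4 of 8 were called lower, and CD8A differed by −3.33 (adjusted p = 0.0413); their part was not tested. The count was 3 without WGD- day 14 replicate 3 and 0 without WGD- day 14 replicate 1, WGD- day 14 replicate 2, WGD+ day 14 replicate 2 or WGD+ day 14 replicate 3. The day 14 comparison uses the same WGD- libraries as the day comparison above.

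The difference between the 2 changes over time was itself tested. The term was negative for all 10 genes and was called for PSMB8 (−3.45, SE 0.59, adjusted p = 0.0206), PSMB9 (−3.68, SE 0.74, adjusted p = 0.0283) and NLRC5 (−4.04, SE 0.74, adjusted p = 0.0209), 3 of 10 where 1.83% of genes were called lower. PSMB10 had a term of −2.58 (adjusted p = 0.0637), TAP1 −2.05, B2M −1.98, H2-K1 −1.62 and H2-D1 −0.59 (adjusted p = 0.715). The count was 1 without WGD- day 14 replicate 1, 0 without WGD- day 14 replicate 2 and 2 without the libraries that stand apart, when PSMB9 was lost (adjusted p = 0.0550). SOCS1 (−2.81) and IRF1 (−2.73) were among 5 of 9 signalling genes called lower, GBP4 (−5.49), CXCL9 (−5.44) and IIGP1 (−4.54) among 7 of 9 targets, ISG15 (−2.25), MX1 (−2.24) and OAS1A (−1.84) among 4 of 10 type I interferon pathway genes, and PSME2 (−1.86) and PSME1 (−1.25) 2 of 4 activator and assembly genes. None of the 8 other heavy chains tested was called. Of the T and cytotoxic lymphocyte markers, 4 of 8 were called lower, with CD8A at −4.12 (adjusted p = 0.025), and their part was not tested.

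The 10 genes varied together over libraries. Over the 24 libraries of the YM-155 table the 45 pairwise correlations were between 0.905 and 0.987, with a median of 0.951, over the 17 antibody libraries between 0.822 and 0.989 and over the 12 time course libraries between 0.629 (H2-D1 with PSMB10) and 0.988. These libraries differ by host, form and treatment, so group differences are part of the values. Within the 12 A/J libraries of the YM-155 table, which still differ by form and treatment, the correlations ran from 0.853 to 0.991 with a median of 0.947. Within the 12 NSG libraries the correlations ran from 0.0149 to 0.960 with a median of 0.473, where levels were low and spread little. By the lowest of its 3 correlations with the mean of the members, the 8 non-member genes most like them were H2-Q4 (0.961), IGTP (0.957), PSME1 (0.956), H2-T10 (0.947), GBP2 (0.944), IRF1 (0.935), GM8909 (0.933) and PSME2 (0.933), out of 12834 genes, of which 23 exceeded 0.9 and the median was −0.316. These points share libraries and depth, and the correlations are given as a description.

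**Figure D5:**
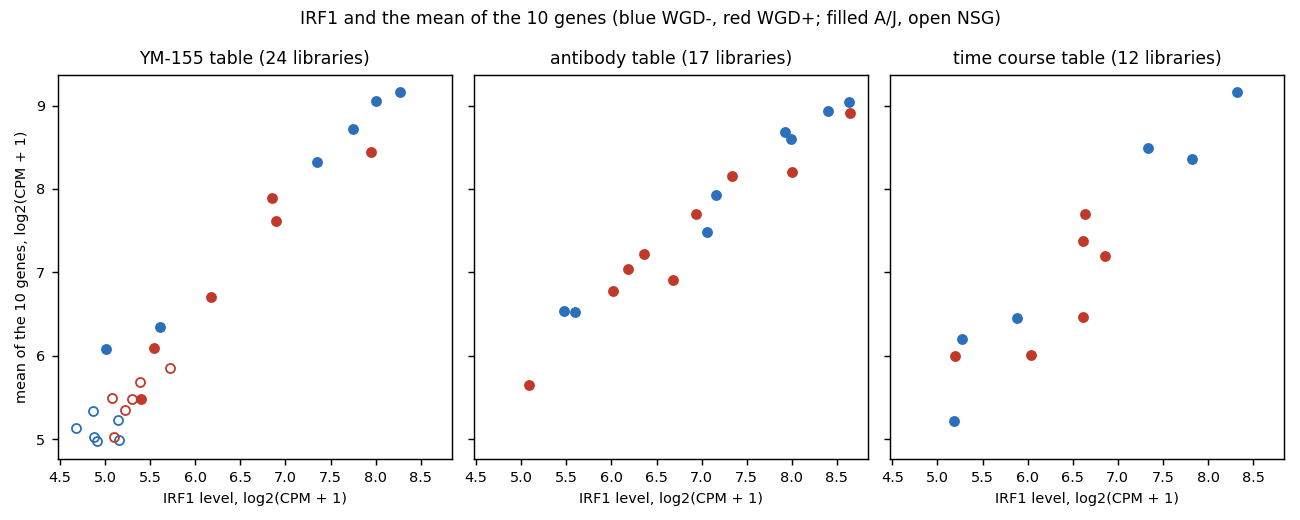
Mean level of the 10 genes (log2(CPM + 1), vertical axis) against the level of IRF1 (horizontal axis), 1 point per library, with the 3 tables in separate panels, blue for WGD-, red for WGD+, filled for A/J and open for NSG hosts. NSG libraries lie at the lower left, and A/J WGD- vehicle libraries, with member means from 8.32 to 9.16, at the upper right.

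By group, the mean level of the 10 genes in the YM-155 table was 8.85 in A/J WGD- vehicle tumours (libraries 8.32 to 9.16), 7.59 in A/J WGD+ vehicle (6.70 to 8.44), 7.05 in A/J WGD- YM-155 (6.08 to 8.72) and 6.49 in A/J WGD+ YM-155 (5.48 to 7.89). The 4 NSG groups had means of 5.05 to 5.68. Neighbouring A/J groups in this order overlapped. In the antibody table the means were 8.49 for anti-PD-L1 and 8.40 for isotype in WGD- tumours, 8.01, 7.17 and 7.02 for anti-PD-L1, isotype and anti-CD8 in WGD+ tumours, and 6.54 for anti-CD8 in WGD- tumours. In the time course they were 8.67 and 5.96 for WGD- tumours at days 14 and 8, and 7.02 and 6.56 for WGD+ tumours.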

How the data were processed

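RNA was extracted with RNeasy kits and sequenced from TruSeq Stranded mRNA libraries, per the labels' protocols. The tools named are STAR 2.5.1b and edgeR, and the build is mm10, per the submitters' processing notes; annotation and counting tool: not given in the sources used here. The authors deposited log2(CPM + 1) values per gene symbol in 3 tables, which were tested separately. CPM was recovered from them, and 100% of the values checked were whole reads within 0.1 reads. Symbols turned into dates were left out; the largest share of reads they held in any library was 0.228%.

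Genes at 1 CPM or more in at least 3 libraries were tested on the deposited scale with limma 3.58.1 in R 4.3.3, with 1 mean per group, all groups of a table in 1 fit, moderated variances with a trend, and Benjamini-Hochberg adjustment over all genes tested (13826, 13840 and 13478). Terms such as form by day are differences between 2 differences. Called means an adjusted p under 0.05. The steps were tested on simulated data.

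The members and gene lists were chosen with earlier results of these data known. All 10 members are reported in every comparison. Of each other pathway list up to 3 called genes with the largest change are named, and of marker lists the counts and summed CPM are given. Genes named outside that rule (IFNG, CD8A, and IRF1 where not called) were chosen after their values were seen. A few genes of these lists are not reported here. The same replicate numbers occur in several groups; in no comparison with 3 pairs did every pair of same-numbered libraries deviate together with a correlation over 0.1, so no block was used. Alternatives were a pseudocount of 0.5, no filter, a fit of only the groups compared, quantile scaling, voom on the recovered reads, a replicate block and leaving out each library. Leaving out the libraries that stand apart (those whose best correlation with another library lies over 3 median absolute deviations below the table's median) was added after seeing the data.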

Additional observations from a re-analysis of the deposited data

Results flagged for a closer look

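The change from day 8 to day 14 differed between WGD+ and WGD- tumours in A/J mice by a test of the difference itself (limma, Benjamini-Hochberg adjustment over all genes) for PSMB8 (−3.45), PSMB9 (−3.68) and NLRC5 (−4.04), 2 immunoproteasome subunits and the regulator of class I genes. In WGD- tumours each day 14 library of these 3 genes lay above each day 8 library, and in WGD+ tumours PSMB8, PSMB9 and NLRC5 had differences of −0.50, −0.10 and −0.46 that were not called. The count of 3 was 0 without WGD- day 14 replicate 2, 1 without WGD- day 14 replicate 1, and 2 without the libraries that stand apart, when PSMB9 was lost (adjusted p = 0.0550). T and cytotoxic lymphocyte markers were called lower in the same term, 4 of 8, with CD8A at −4.12 (adjusted p = 0.025), and their part was not tested.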

How the results depend on the processing

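Of 32 called member results, a pseudocount of 0.5 kept 31, no filter 20, a fit of only the groups compared 26, quantile scaling 29, voom on the recovered reads 26 and a replicate block 29; of 18 such results that involve a library standing apart, 16 were kept without it, and none was reversed under any of these or in 210 leave-out values. The counts of called members moved by over 1.5 times as follows. With only the groups compared, the forms gave 2 in NSG vehicle, 2 in NSG YM-155, 3 under anti-CD8 and 0 at day 14, A/J minus NSG in WGD- YM-155 tumours gave 0 and anti-CD8 minus isotype in WGD- tumours gave 10. With no filter, A/J minus NSG gave 0 in WGD- YM-155 and 4 in WGD+ vehicle tumours, the forms at day 14 gave 0 and the day comparison in WGD- tumours gave 3. With quantile scaling A/J minus NSG in WGD- YM-155 tumours gave 2 and the forms at day 14 gave 2. With voom the forms at day 14 gave 0 and the day comparison in WGD- tumours gave 3; it called 45 of all genes in the latter, and gave 0 members wherever the deposited values gave 0. With the replicate block 3 calls were lost: H2-K1 in A/J minus NSG, WGD- YM-155 (adjusted p = 0.0522), B2M in A/J minus NSG, WGD+ vehicle (adjusted p = 0.0537) and TAP1 in the day comparison in WGD- tumours (adjusted p = 0.0523). Of the comparisons with 3 pairs, the form comparison at day 14 came closest to a pairing by number, with correlations of 0.0920 to 0.159; with 2 pairs, the forms under anti-CD8 had 0.396 and 0.461. Leaving out each library in turn gave 0 to 6 for A/J minus NSG in WGD- YM-155 tumours, 1 to 8 in WGD+ vehicle, 0 to 9 for YM-155 in A/J WGD- tumours, 0 to 3 for the forms at day 14, 0 to 5 and 0 to 1 for the day comparison in WGD- and WGD+ tumours, and 0 to 4 for form by day, and did not move the other counts. The cause of these shifts was not tested. Quantile scaling turned the sign of the near-zero H2-D1 difference between forms in A/J YM-155 and day 8 tumours. Low NLRC5 and IFNG read counts in NSG tumours limit their precision.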
